A study of Danio rerio with 12 samples.

Results

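The small leucine-rich proteoglycans examined here were 3 rows of a zebrafish gene count table of 33737 rows: BGN (biglycan, ENSDARG00000002945), OGN (osteoglycin, also called mimecan, ENSDARG00000044132) and PODN (podocan, ENSDARG00000019025). They were named as a set because their counts differed between stages of fin regeneration, so their levels are given as a description, with no test. A search of the table by symbol for the whole family found 21 rows, these 3 and 18 others. Of the 18, 15 held enough counts to be tested, and they are compared with the full table of 16612 tested genes.

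Small leucine-rich proteoglycans are secreted proteins built from leucine-rich repeats, many of which carry chondroitin, dermatan or keratan sulfate chains. Many bind collagen fibrils and set how thick the fibrils grow and how they are spaced, and several also bind growth factors of the TGF-beta and BMP families. They are abundant in bone, tendon, cornea and skin, tissues rich in fibrillar collagen, and the fin rays of fish contain bone and collagen-rich connective tissue.

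The libraries came from the caudal fin of adult zebrafish of the AB-Tu strain, aged 8 to 18 months. One group was the uncut fin, 0 days post amputation (dpa), and the others were regenerating fins at 2, 3 and 10 dpa. Each stage had 3 libraries, each made from a pool of 6 fish, and no treatment other than amputation was recorded. The labels do not say whether the same fish were sampled again at later stages, nor how much stump tissue each sample held. Total counts ran from 8833337 to 22843743 per library. Levels are given in CPM, the counts of a gene set against its library total, which was scaled by TMM, a trimmed mean of log ratios between libraries. The summed level of 9 epidermal marker rows was 63056 to 84359 CPM in the uncut fin, 41799 to 66256 CPM at 2 dpa, 28638 to 29518 CPM at 3 dpa and, by 10 dpa, 50925 to 58938 CPM. None of these rows was at 0 throughout a stage. No pair of libraries of 1 stage was a repeat of the same library, since counting noise alone gives a chi-square near its degrees of freedom and the ratio of these was 17.6 to 116. CPM do not correct for transcript length, so levels are compared between stages and not between genes. In RNA from whole fin, fewer cells of a type and less RNA per cell cannot be told apart.

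The 3 genes followed different courses. BGN was lowest at 2 dpa and highest at 10 dpa, OGN was lowest in the uncut fin and higher at all regenerating stages, and PODN was highest in the uncut fin and at most 1.11 CPM at 2 and 3 dpa. Between 2 dpa and the uncut fin the 3 libraries of each stage did not overlap for any of the 3 genes. OGN was above and BGN and PODN were below, in a comparison where 26.6% of all tested genes lay above and 28.0% below without overlap. The same order of highest and lowest stage was shared with BGN by 9.35% of tested genes, with OGN by 15.7% and with PODN by 13.9%. Since the genes were picked from these counts, nothing is read from those shares.

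**Figure D1:**
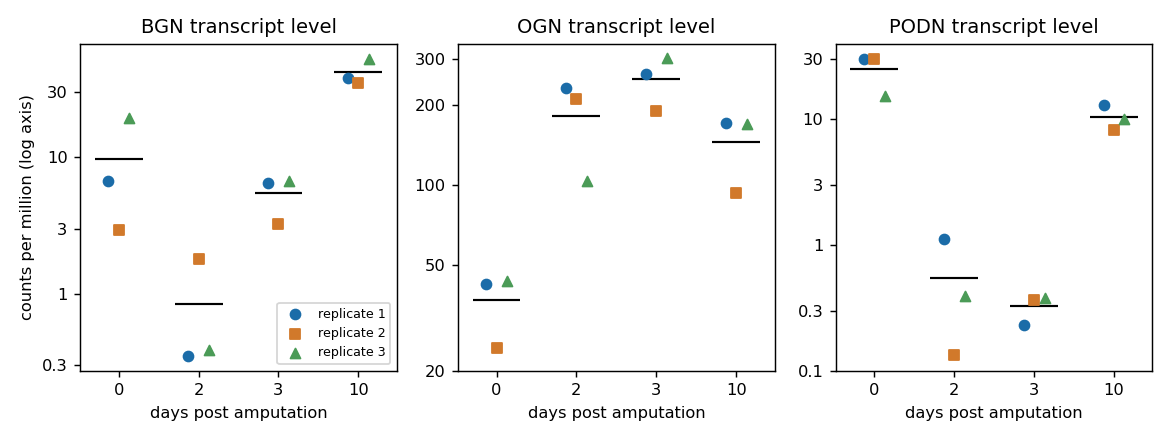
Level of BGN, OGN and PODN in each of the 12 libraries, in CPM on a log axis, against days post amputation, with stages evenly spaced. Points are libraries, with 1 symbol per replicate number, and bars are the mean of 3. BGN dips at 2 dpa (0.846 CPM) and peaks at 10 dpa (41.7 CPM), OGN lies above the uncut fin at the other stages, and PODN is at most 1.11 CPM at 2 and 3 dpa.

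Biglycan is a proteoglycan with chondroitin or dermatan sulfate chains that is abundant in bone matrix and tendon and binds type I collagen. In the uncut fin BGN was at 6.72, 2.94 and 19.4 CPM in replicates 1, 2 and 3, from 82, 34 and 167 counts. At 2 dpa it was at 0.352, 1.80 and 0.390 CPM, from 7, 27 and 5 counts. The 2 dpa libraries were all below the uncut ones, and replicate 2 stood above the other two. At 3 dpa it was at 6.42, 3.23 and 6.69 CPM, from 56, 80 and 88 counts, within the range of the uncut fin. At 10 dpa it was at 37.9, 34.6 and 52.5 CPM, from 520, 596 and 508 counts, above all other libraries. The stage means were 9.69 ± 8.63, 0.846 ± 0.822, 5.45 ± 1.93 and 41.7 ± 9.47 CPM in order of time (SD, n = 3).

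The order of BGN levels was 10 dpa, uncut fin, 3 dpa and 2 dpa. Only the neighbours uncut fin and 3 dpa overlapped in that order. On the log2 scale the change from the uncut fin was -3.50 ± 0.69 (SE) at 2 dpa, which is 11.3-fold lower. It was -0.83 ± 0.59 at 3 dpa and 2.12 ± 0.58 at 10 dpa, the latter 4.36-fold higher. From 2 to 10 dpa the log2 change was 5.63 ± 0.71, or 49.4-fold. From 2 to 3 dpa the log2 change was 2.67 ± 0.69, and from 3 to 10 dpa it was 2.96 ± 0.60, the second equal to 7.77-fold. Without overlap, 11.8% of tested genes lay above 2 dpa at 3 dpa and 23.2% at 10 dpa.

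BGN varied more among pools of 1 stage than the other members did, with a pooled SD of 0.93 on the log2 scale, against 0.50 for OGN and 0.65 for PODN. Replicate 3 of the uncut fin and replicate 2 of 2 dpa were the libraries whose omission moved its early changes most. With the first left out, the change at 2 dpa was -2.52, that at 3 dpa turned to 0.15 and that at 10 dpa was 3.10. With the second left out, the change at 2 dpa was -4.67, that from 2 to 3 dpa was 3.82 and that from 2 to 10 dpa was 6.79. Within replicate numbers, whose libraries share a field of the sample name, BGN was lower at 2 dpa than in the uncut fin by 3.79, 0.67 and 5.20 on the log2 scale. At 10 dpa it was higher by 2.47, 3.50 and 1.43.

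In the uncut fin and at 2 dpa, the library highest in BGN was also the highest in summed bone cell markers. The summed osteoblast markers (12 rows) were 499, 360 and 1241 CPM in the uncut fin and 460, 1594 and 315 CPM at 2 dpa, in order of replicate. At 3 dpa they were 3839, 4381 and 4305 CPM, and at 10 dpa 3343, 5794 and 5293 CPM, so at both stages replicate 2, the lowest in BGN, had the highest sum. Type X collagen, COL10A1, one of the 12, was at 81.1 to 868 CPM in the uncut fin, 75.7 to 1370 CPM at 2 dpa, 3313 to 4104 CPM at 3 dpa and, by 10 dpa, 2608 to 5238 CPM. At 3 dpa COL10A1 made up most of the sum. It also made up most of the highest sum of each earlier stage, 868 of 1241 CPM in the uncut fin and 1370 of 1594 CPM at 2 dpa. The match of these libraries with BGN thus rests largely on this 1 gene. Of 9 tested osteoblast rows, 1 was called higher and 2 lower than the uncut fin at 2 dpa, against 22.9% and 24.1% of all tested genes. At 3 dpa 4 were higher and 2 lower, against 22.8% and 21.3%. At 10 dpa 4 were higher and none lower, against 6.60% and 2.78%. SP7, the transcription factor that defines osteoblasts, was at 9.16 to 19.1 CPM in the uncut fin and 6.79 to 24.0 CPM at 2 dpa. The summed fibroblast and mesenchyme markers (16 rows) were 428, 313 and 674 CPM in the uncut fin and 445, 702 and 336 CPM at 2 dpa. At 3 dpa they were 1255, 920 and 1182 CPM, and at 10 dpa 1131, 1102 and 1205 CPM. Of 14 tested rows of this list, 7 were called higher and none lower at 10 dpa than in the uncut fin. No more than 2 rows of either list were at 0 in any of the uncut or 2 dpa libraries. The part of these cells in the BGN levels was not tested.

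Osteoglycin is a small keratan sulfate proteoglycan, first described from bone, that takes part in collagen fibril assembly in mouse cornea and skin. In the uncut fin OGN was at 42.3, 24.5 and 43.7 CPM in replicates 1, 2 and 3, from 517, 283 and 376 counts. At 2 dpa it was at 233, 211 and 104 CPM, from 4644, 3176 and 1333 counts. At 3 dpa it was at 262, 190 and 301 CPM, and at 10 dpa at 171, 93.4 and 170 CPM. All 9 regenerating libraries were above all uncut ones, and replicates 3 of 2 dpa and 2 of 10 dpa were the lowest of them. The stage means were 36.8 ± 10.7, 183 ± 69.2, 251 ± 55.9 and 145 ± 44.6 CPM in order of time (SD, n = 3).

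OGN ran in the order 3 dpa, 2 dpa, 10 dpa and uncut fin. Its neighbours 3 and 2 dpa overlapped, as did 2 and 10 dpa, while 10 dpa and the uncut fin did not. The log2 change from the uncut fin was 2.31 ± 0.35 (SE) at 2 dpa, 2.77 ± 0.36 at 3 dpa and 1.98 ± 0.35 at 10 dpa. These are 4.97-fold, 6.82-fold and 3.94-fold higher. At 3 dpa 29.7% of tested genes, and at 10 dpa 19.4%, lay above the uncut fin without overlap. From 3 to 10 dpa OGN was lower by a log2 change of -0.79 ± 0.33, with no overlap between the stages, as for 19.8% of tested genes. Within replicate numbers the change from the uncut fin was 2.46, 3.10 and 1.25 at 2 dpa, 2.62, 2.95 and 2.78 at 3 dpa and 2.01, 1.93 and 1.96 at 10 dpa.

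Podocan is a family member with a longer run of repeats that binds type I collagen and, in mouse, restrains smooth muscle growth. In the uncut fin PODN was at 29.8, 30.1 and 15.2 CPM in replicates 1, 2 and 3, from 364, 348 and 131 counts. At 2 dpa it was at 1.11, 0.133 and 0.390 CPM, from 22, 2 and 5 counts. At 3 dpa it was at 0.229, 0.363 and 0.380 CPM, from 2, 9 and 5 counts. At 10 dpa it was at 12.8, 8.25 and 9.91 CPM, from 176, 142 and 96 counts. No library of 10 dpa reached the lowest uncut one, and no library of 2 or 3 dpa came near those of 10 dpa. The stage means were 25.0 ± 8.50, 0.543 ± 0.504, 0.324 ± 0.0825 and 10.3 ± 2.32 CPM in order of time (SD, n = 3).

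PODN ran in the order uncut fin, 10 dpa, 2 dpa and 3 dpa, and only 2 and 3 dpa overlapped. The log2 change from the uncut fin was -5.41 ± 0.49 (SE) at 2 dpa and -6.17 ± 0.54 at 3 dpa, which are 42.6-fold and 72.2-fold lower. At 10 dpa it was -1.28 ± 0.39, or 2.43-fold lower. From 3 to 10 dpa the log2 change was 4.89 ± 0.53, or 29.7-fold higher, and from 2 to 10 dpa it was 4.13 ± 0.48, or 17.5-fold. Without overlap, 26.8% of tested genes lay below the uncut fin at 3 dpa and 14.5% at 10 dpa, while 19.7% lay above 3 dpa at 10 dpa. Replicate 1 held 22 of the 29 counts of 2 dpa. With it left out, the change at 2 dpa was -6.57, that from 2 to 3 dpa turned from -0.76 to 0.41 and that from 2 to 10 dpa was 5.30.

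OGN and PODN can also be set against each other within a library, which leaves out the scaling of library totals. Summed over the 3 libraries of a stage, there were 1.40 OGN counts for each PODN count in the uncut fin, with an exact 95% interval of 1.28 to 1.53. The ratio was 316 (220 to 472) at 2 dpa and 685 (422 to 1199) at 3 dpa, and came down to 13.5 (12.2 to 15.0) at 10 dpa. These intervals cover counting error only, and reads are not independent molecules. Both genes were picked with their counts known, so the course of the ratio came with that choice and is a description only. In single libraries the ratio was 0.813 to 2.87 in the uncut fin and 11.3 to 17.2 at 10 dpa. At 2 dpa it was 211 (139 to 337) in replicate 1, from 22 PODN counts, 1588 (439 to 13118) in replicate 2, from 2 counts, and 267 (114 to 822) in replicate 3, from 5 counts. The intervals of replicates 1 and 2 of 2 dpa did not overlap. Whether these libraries differed by more than counting error was not tested, since reads are not independent and replicate 2 held 2 PODN counts. Without replicate 1 the 2 dpa ratio was 644 (312 to 1603). At 3 dpa it was 1141 (316 to 9427), 525 (276 to 1148) and 791 (339 to 2437) in order of replicate.

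The zebrafish genome holds duplicate genes for biglycan and osteoglycin, and the table had a second row under each symbol. How reads were aligned and counted is not stated, so reads that fit both copies could have been split between the rows or dropped. The second BGN row (ENSDARG00000017884) was at 12.4 ± 8.42, 8.37 ± 8.11, 34.4 ± 3.11 and 55.7 ± 6.99 CPM in order of time (SD, n = 3). The first row held 40.4%, 35.1% and 47.2% of the counts of both rows in replicates 1, 2 and 3 of the uncut fin. At 2 dpa it held 7.22%, 9.22% and 11.9%, at 3 dpa 15.4%, 9.45% and 15.3%, and at 10 dpa 43.8%, 35.6% and 48.5%. The libraries of 2 and 3 dpa were thus all below those of the uncut fin and 10 dpa in this share, which was chosen after its values were seen. Exact 95% intervals were 25.6% to 45.4% for replicate 2 of the uncut fin and 3.98% to 25.6% for replicate 3 of 2 dpa, the library with the fewest counts in both rows.

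The second OGN row (ENSDARG00000031489) held 8, 0, 2 and 9 counts over the 3 libraries of each stage in order of time, and was too low to be tested. Practically all counts under the symbol OGN were therefore in the first row. Which of the paralog names bgna, bgnb, ogna and ognb belongs to which row is not given by the tables used here.

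**Figure D2:**
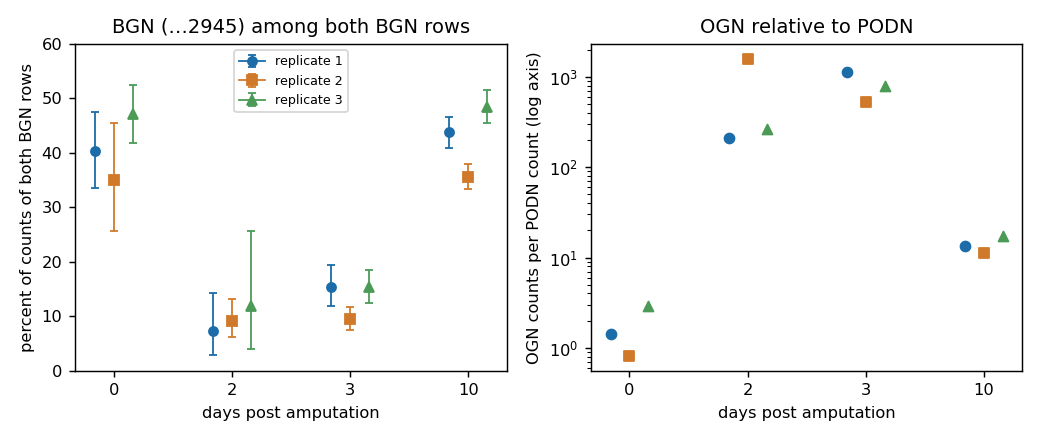
Left, the BGN row ENSDARG00000002945 as a percent of the counts of both BGN rows in each library, with exact 95% intervals for counting error. Right, OGN counts per PODN count in each library on a log axis. Points are libraries by replicate number against days post amputation, with stages evenly spaced. The BGN share is 35.1% to 48.5% in the uncut fin and at 10 dpa and 7.22% to 15.4% at 2 and 3 dpa, and the OGN to PODN ratio is highest at 2 and 3 dpa.

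Among the 15 other family rows tested, 12 differed among the 4 stages (edgeR quasi-likelihood F test, adjusted p under 0.05), against 48.7% of all tested genes. The remaining 3 were KERA, keratocan, TSKU, tsukushi, and chadla, a chondroadherin-like gene (edgeR adjusted p = 0.342, 0.0667 and 0.243), whose levels were at most 1.31, 71.5 and 1.15 CPM in any library. Rows for epyc (epiphycan), NYX (nyctalopin) and the second OGN were below the filter, with at most 0.266, 0.459 and 0.581 CPM. No row was matched for the podocan-like gene PODNL1.

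At 2 dpa, 1 of the 15 rows was higher and 5 were lower than in the uncut fin, where 22.9% of tested genes were higher and 24.1% lower. The median log2 change of the 15 was -0.55, against 0.03 for all tested genes. The row that rose was ecm2, a leucine-rich matrix protein related to this family. It went from 44.0 ± 7.44 to 415 ± 184 CPM (SD, n = 3), 9.44-fold (log2 3.24 ± 0.34 SE, edgeR adjusted p = 8.53e-06). Lumican, LUM, a keratan sulfate proteoglycan of collagen fibrils, fell from 867 ± 121 to 109 ± 65.4 CPM, 7.96-fold (log2 change -2.99 ± 0.48, edgeR adjusted p = 2.18e-04).

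The other rows that fell at 2 dpa were 1 of 2 fibromodulin rows, osteomodulin, chondroadherin and a chondroadherin-like gene. The fibromodulin row FMOD (ENSDARG00000010294) went from 84.5 ± 45.8 to 9.29 ± 4.48 CPM, 9.15-fold lower (edgeR adjusted p = 1.68e-04). OMD, a keratan sulfate proteoglycan of bone, went from 13.1 ± 0.899 to 2.56 ± 1.54 CPM, 5.00-fold lower (edgeR adjusted p = 0.00127). The gene chad, for a cell-binding protein of cartilage and bone, was 6.46-fold lower (edgeR adjusted p = 1.21e-04), and chadlb was 7.93-fold lower (edgeR adjusted p = 7.78e-04). All 6 calls held in each of the 18 other settings run, which include leaving out each library in turn.

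At 3 dpa, 6 of the 15 rows were higher and 3 lower than in the uncut fin, against 22.8% and 21.3% of tested genes, and the median log2 change was 0.50 (0.05 for all tested genes). Decorin, DCN, the nearest relative of biglycan and a regulator of fibril width, rose from 179 ± 18.4 to 582 ± 137 CPM (SD, n = 3). Its log2 change was 1.70 ± 0.31 (SE, edgeR adjusted p = 5.91e-04). Asporin, ASPN, which inhibits TGF-beta and BMP signalling, rose 2.63-fold (edgeR adjusted p = 0.00914). PRELP, which links collagen to heparan sulfate, rose 3.33-fold (edgeR adjusted p = 5.44e-04), and ecm2 stayed 10.2-fold above the uncut fin (edgeR adjusted p = 1.12e-05). The second fibromodulin row, FMOD (ENSDARG00000044895), rose 5.88-fold from 0.577 ± 0.234 CPM (edgeR adjusted p = 0.00457).

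The second BGN row rose 2.81-fold at 3 dpa (edgeR adjusted p = 0.0401), while the first BGN row overlapped the uncut fin. This call was lost in 10 of 18 other settings, among them the omission of any library of 3 or 10 dpa or of replicates 1 or 2 of the uncut fin, with log2 changes of 1.13 to 2.16 over all settings. The rows that fell were chad, 4.07-fold (edgeR adjusted p = 9.62e-04), chadlb, 16.3-fold (edgeR adjusted p = 1.82e-04), and the first fibromodulin row, 2.40-fold (edgeR adjusted p = 0.0368). The fibromodulin call was lost in 6 of 18 settings, including the omission of replicates 1 or 2 of either stage, with log2 changes of -1.62 to -0.82. The other 7 calls at 3 dpa held in all 18. Of the 9 epidermal marker rows, 7 were lower and none higher at 3 dpa than in the uncut fin, and of 14 tested fibroblast and mesenchyme marker rows 8 were higher and 1 lower. Beside these stand 22.8% of all tested genes higher and 21.3% lower. The part of these cell types in the 3 dpa changes of the family and of the gene lists that follow was not tested.

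At 10 dpa, 5 of the 15 rows were higher and 1 lower than in the uncut fin, against 6.60% and 2.78% of tested genes. The median log2 change was 0.91, against 0.04 for all tested genes. ASPN rose from 74.7 ± 50.1 to 291 ± 47.9 CPM (SD, n = 3), a log2 change of 1.97 ± 0.39 (SE, edgeR adjusted p = 0.00826), and this call held in all 18 other settings. The second BGN row rose 4.55-fold (edgeR adjusted p = 0.0276), close to the 4.36-fold of the first. FMOD (ENSDARG00000044895) rose 4.96-fold, PRELP 2.30-fold and DCN 2.11-fold (edgeR adjusted p = 0.0348, 0.0262 and 0.0389), and chadlb was 6.33-fold lower (edgeR adjusted p = 0.0111).

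The calls at 10 dpa other than ASPN each depended on single libraries. With replicate 2 of the uncut fin left out, ASPN alone remained called higher and no row was called lower. Over all genes, calls at 10 dpa went from 1558 to 483 with this omission. The log2 change was then 1.82 for the second BGN row, 0.99 for DCN, 2.04 for FMOD, 1.11 for PRELP and -2.08 for chadlb. The second BGN row and DCN each lost the call in 7 of 18 settings, FMOD and PRELP in 4 each and chadlb in 2, with no change of sign.

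Between 2 and 10 dpa, 8 of the 15 rows rose and 2 fell, against 17.8% and 12.3% of tested genes, and the median log2 change was 1.50 (-0.001 for all tested genes). LUM rose 13.8-fold to 1500 ± 364 CPM (SD, n = 3, edgeR adjusted p = 8.6e-05), chad 12.1-fold (edgeR adjusted p = 2.73e-05) and OMD 11.0-fold (edgeR adjusted p = 1.44e-04). The second BGN row, ASPN, PRELP and both FMOD rows rose 2.82-fold to 6.66-fold. The gene ecm2 fell 5.03-fold (edgeR adjusted p = 1.54e-04). Opticin, optc, known from the vitreous of the eye, fell 2.76-fold from 0.895 ± 0.453 CPM (edgeR adjusted p = 0.0431), a call lost in 9 of the 17 settings that tested it.

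Between 2 and 3 dpa, 6 of the 15 rows rose and none fell, against 3.28% and 0.494% of tested genes. At an unadjusted p under 0.05 edgeR also counted 0 falls, as did DESeq2 after adjustment. They were PRELP, LUM, OMD, DCN and both FMOD rows, with rises of 2.38-fold to 7.89-fold. The PRELP rise, 4.20-fold (edgeR adjusted p = 0.00404), held in all 18 other settings. With replicate 3 of 3 dpa left out PRELP alone was called, and the log2 changes of the other 5 were then 1.16 for DCN, 2.28 for LUM, 1.74 for OMD and 1.57 and 2.73 for the FMOD rows. Calls over all genes between 2 and 3 dpa went from 627 to 173 with that omission. Between 3 and 10 dpa, 3 rows rose and 2 fell, against 11.3% and 8.26% of tested genes. The gene chad rose 7.64-fold (edgeR adjusted p = 2.73e-04), while ecm2 fell 5.43-fold (edgeR adjusted p = 2.67e-04) and optc 5.18-fold (edgeR adjusted p = 0.00500), calls that held in all 18 settings. The rises of LUM (2.63-fold, edgeR adjusted p = 0.0432) and OMD (2.87-fold, edgeR adjusted p = 0.0261) were lost in 10 and 3 of 18 settings. With replicate 1 of 3 dpa left out neither passed, at log2 changes of 1.61 for each.

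**Figure D3:**
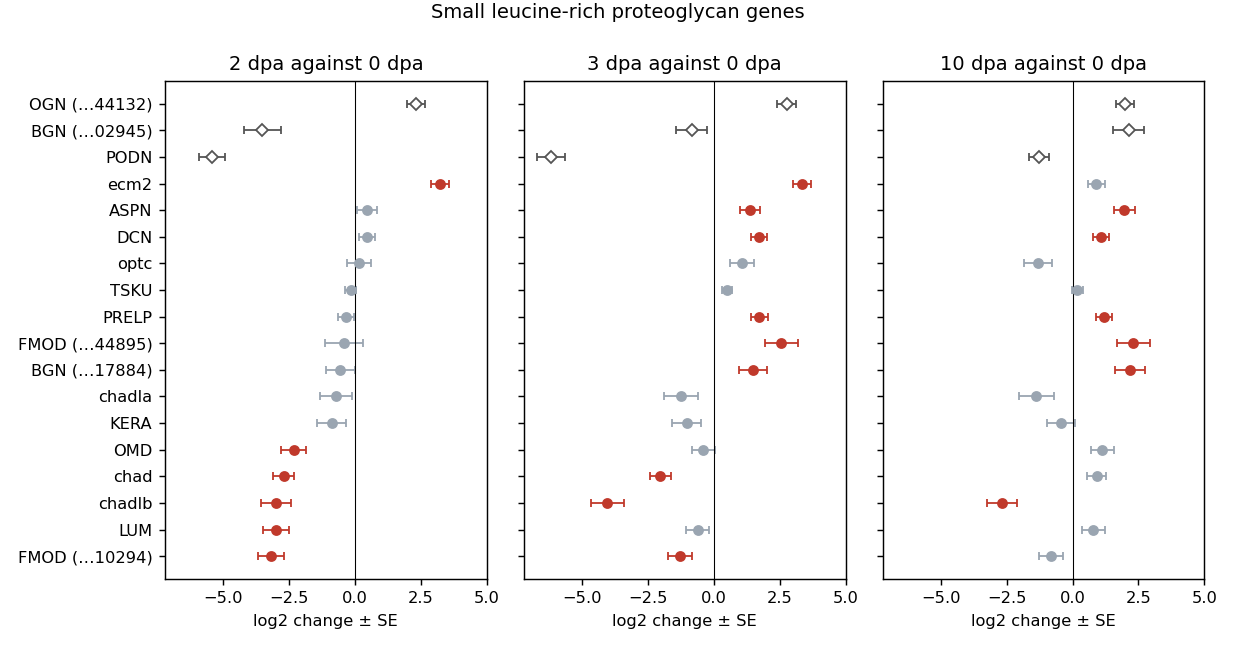
Log2 change from the uncut fin at 2, 3 and 10 dpa for the 18 small leucine-rich proteoglycan rows that passed the filter, with bars of 1 standard error. Open diamonds are BGN, OGN and PODN, which were not tested. Red points passed adjusted p under 0.05 and grey points did not. At 2 dpa ecm2 is the only tested row called higher and 5 are called lower, and at 10 dpa chadlb alone is called lower.

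The members can be placed beside family rows that took a like course, as a description over the 12 libraries, which share 4 stages. Pearson's r of log2 CPM between BGN and the rows LUM, OMD and chad was 0.87, 0.87 and 0.85, and it was 0.84 with the second BGN row. OGN had r = 0.82 with ecm2 and 0.76 with DCN, and -0.89 with chadlb. PODN had r = 0.84 with chad and 0.82 with chadlb, and -0.94 with ecm2. Between the members, r was 0.55 for BGN and PODN, -0.09 for BGN and OGN and -0.76 for OGN and PODN.

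In the RefSeq gene order of the assembly GRCz12tu, used here for neighbours alone, ogna, omd, aspn and ecm2 lie next to one another on chromosome 22, with no other protein-coding gene between them. The rows OMD, ASPN and ecm2 did not share a course, since at 2 dpa OMD was 5.00-fold lower and ecm2 9.44-fold higher, while ASPN had a log2 change of 0.47 ± 0.37 (SE, edgeR adjusted p = 0.322). The genes epyc, kera, lum and dcn lie next to one another on chromosome 4 in the same way. There LUM fell at 2 dpa while DCN had a log2 change of 0.45 ± 0.30 (SE, edgeR adjusted p = 0.229). The genes ognb and bgnb lie on chromosome 23 with 11 protein-coding genes between them.

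Chondroitin and dermatan sulfate chains, which decorate biglycan and decorin, are begun by a xylosyltransferase on the core protein, extended by polymerases and then sulfated. Of 32 tested rows for this assembly, 15 rose and 3 fell at 2 dpa, 18 rose and 2 fell at 3 dpa, and 11 rose and 1 fell at 10 dpa. Their median log2 changes were 0.47, 1.00 and 0.65, against 0.03, 0.05 and 0.04 for all tested genes. The rows that rose were 46.9%, 56.2% and 34.4% of the list and those that fell 9.38%, 6.25% and 3.12%. Of all tested genes, 22.9%, 22.8% and 6.60% rose and 24.1%, 21.3% and 2.78% fell. The polymerase CHSY1 rose from 12.4 ± 3.77 to 103 ± 24.8 CPM at 2 dpa (SD, n = 3), 8.34-fold (edgeR adjusted p = 3.05e-06), and was 6.25-fold higher at 3 dpa (edgeR adjusted p = 1.36e-05). The linker enzyme B4GALT7 rose 5.95-fold at 2 dpa and was 3.01-fold higher at 10 dpa (edgeR adjusted p = 5.08e-04 and 0.0479). The sulfotransferase CHST7 fell at each stage, by a log2 change of -1.42 ± 0.29 at 2 dpa, -1.56 ± 0.29 at 3 dpa and -1.14 ± 0.29 at 10 dpa (edgeR adjusted p = 0.00134, 7.81e-04 and 0.0262). The row PAPSS2 (ENSDARG00000071021), for an enzyme that makes the sulfate donor, fell 4.44-fold at 2 dpa (edgeR adjusted p = 0.00818). A second PAPSS2 row (ENSDARG00000056600) was at 51.2 ± 6.42 CPM in the uncut fin, 64.6 ± 32.0 CPM at 2 dpa and 87.2 ± 6.40 CPM at 3 dpa (SD, n = 3). PAPSS1, for another enzyme that makes this donor, was at 4.14 ± 1.15, 24.3 ± 2.88 and 26.0 ± 2.87 CPM in the same order.

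Keratan sulfate is the chain of osteoglycin, lumican, fibromodulin and osteomodulin. Of 9 tested rows for its assembly, 1 rose and 2 fell at 2 dpa, 2 rose and 3 fell at 3 dpa, and 1 rose at 10 dpa, where edgeR at an unadjusted p under 0.05 counted 1 fall and DESeq2 counted 0. In order of time that is 11.1%, 22.2% and 11.1% higher, against the 22.9%, 22.8% and 6.60% of all tested genes, and 22.2% and 33.3% lower at 2 and 3 dpa, against 24.1% and 21.3%. The sulfotransferase CHST1 rose from 0.145 ± 0.182 to 2.07 ± 0.940 CPM at 2 dpa (SD, n = 3, edgeR adjusted p = 7.42e-04). The galactosyltransferase b4galt1 fell 2.01-fold (edgeR adjusted p = 0.00243).

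The collagens that these proteoglycans bind include fibrillar, fibril-associated and type VI collagens. Of 18 tested rows, 7 rose and 1 fell at 2 dpa and 13 rose and 1 fell at 3 dpa. At 10 dpa 11 rose and none fell. The median log2 changes were 0.74, 1.56 and 1.71, against 0.03, 0.05 and 0.04 for all tested genes. The rows that rose were 38.9%, 72.2% and 61.1% of the list, against 22.9%, 22.8% and 6.60% of all tested genes. Those that fell were 5.56%, 5.56% and 0%, against 24.1%, 21.3% and 2.78%. For 10 dpa the falls were also 0 by edgeR at an unadjusted p under 0.05 and by DESeq2. COL12A1 (ENSDARG00000078322), a fibril-associated collagen, rose from 809 ± 241 to 3323 ± 77.8 CPM at 2 dpa (SD, n = 3, edgeR adjusted p = 4.72e-05). The other COL12A1 row (ENSDARG00000019601) was at 1406 ± 230 CPM in the uncut fin and 1458 ± 363 CPM at 2 dpa. The type I collagen gene col1a1a, whose protein biglycan and podocan bind, was 5.56-fold higher at 3 dpa (edgeR adjusted p = 0.00142). The row that fell was col14a1b, a fibril-associated collagen that decorin binds. It went from 48.5 ± 14.5 to 2.19 ± 0.306 CPM at 2 dpa, 22.1-fold (edgeR adjusted p = 2.27e-06), and was 5.08-fold lower at 3 dpa (edgeR adjusted p = 1.55e-04). The other type XIV collagen row was COL14A1 (ENSDARG00000005762). Its levels were 55.1 ± 10.1, 194 ± 145 and 198 ± 74.1 CPM in the uncut fin and at 2 and 3 dpa. The type VI collagen row col6a1 was at 542 ± 231 CPM in the uncut fin, 260 ± 205 CPM at 2 dpa and 906 ± 167 CPM at 3 dpa.

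Growth factors of the TGF-beta and BMP families, which decorin, biglycan and asporin bind, signal through paired membrane receptors. Of 28 tested rows of that list, 8 rose and 10 fell at 2 dpa, 7 rose and 5 fell at 3 dpa, and 2 rose and 1 fell at 10 dpa. The shares that rose, 28.6%, 25.0% and 7.14%, were near the 22.9%, 22.8% and 6.60% of all tested genes. The shares that fell were 35.7%, 17.9% and 3.57%, against 24.1%, 21.3% and 2.78%. The activin subunit INHBA (ENSDARG00000024759) rose from 7.99 ± 3.04 to 112 ± 23.6 CPM at 2 dpa (SD, n = 3), 14.0-fold (edgeR adjusted p = 1.44e-06), and the ligand TGFB2 rose 6.01-fold (edgeR adjusted p = 3.44e-05). The ligand TGFB3 fell 11.3-fold, from 383 ± 53.8 to 34.0 ± 2.21 CPM (edgeR adjusted p = 2.25e-05). CCN2, a target gene of TGF-beta, fell 8.84-fold (edgeR adjusted p = 3.08e-05), and the receptor row TGFBR2 (ENSDARG00000034541) was 3.98-fold lower at 3 dpa (edgeR adjusted p = 1.19e-05). A second TGFBR2 row (ENSDARG00000059363) was at 10.5 ± 2.12 CPM in the uncut fin, 39.6 ± 5.69 CPM at 2 dpa and 19.8 ± 6.48 CPM at 3 dpa (SD, n = 3).

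Biglycan and osteoglycin are made with propeptides that the BMP1 family of proteinases removes, as shown with mammalian proteins, and several metalloproteinases and lysosomal enzymes break the proteoglycans down. The list of 20 tested rows for these steps also held procollagen C-proteinase enhancers, the PCOLCE genes, which act on collagen precursors. Of the 20, 7 rose and 2 fell at 2 dpa, and 12 rose and 2 fell at 3 dpa. At 10 dpa 6 rose and none fell. For 10 dpa edgeR at an unadjusted p under 0.05 and DESeq2 likewise gave 0 falls. Beside these counts stand 22.9%, 22.8% and 6.60% of all tested genes that rose and 24.1%, 21.3% and 2.78% that fell. BMP1 (ENSDARG00000028071) went from 61.9 ± 16.3 to 474 ± 76.5 CPM at 3 dpa (SD, n = 3), 7.66-fold (edgeR adjusted p = 3.05e-05), while the row BMP1 (ENSDARG00000028053) was 2.45-fold lower (edgeR adjusted p = 0.0273). TLL1, of the same family, was 5.13-fold higher at 10 dpa (edgeR adjusted p = 0.0204). The 2 rows that fell at 2 dpa were pcolceb, 46.9-fold from 236 ± 35.3 CPM, and pcolcea, 3.23-fold (edgeR adjusted p = 5.8e-07 and 0.0122). At 3 dpa pcolceb was 21.7-fold lower (edgeR adjusted p = 2.52e-06). In contrast pcolcea was at 24.6 ± 6.65 CPM in the uncut fin, 7.64 ± 6.71 CPM at 2 dpa and 61.2 ± 27.7 CPM at 3 dpa. PCOLCE2 (ENSDARG00000055575) rose 4.21-fold at 2 dpa (edgeR adjusted p = 1.81e-04). The other PCOLCE2 row (ENSDARG00000008450) was at 1.59 ± 1.44 CPM in the uncut fin and 1.75 ± 1.05 CPM at 2 dpa. Among the metalloproteinases the row MMP14 (ENSDARG00000008388) rose 4.81-fold at 2 dpa (edgeR adjusted p = 3.31e-05) and mmp13a 13.1-fold at 3 dpa (edgeR adjusted p = 5.08e-05). The other MMP14 row (ENSDARG00000002235) was at 532 ± 241 CPM in the uncut fin and 867 ± 139 CPM at 2 dpa.

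Of 23 tested rows for proteoglycans of other families and their link proteins, 3 rose and 7 fell at 2 dpa. At 3 dpa 8 rose and 7 fell, and at 10 dpa 3 rose and 1 fell. Among all tested genes 22.9%, 22.8% and 6.60% rose and 24.1%, 21.3% and 2.78% fell, and the falls in the list, 30.4%, 30.4% and 4.35% of it, were not far above those shares. HAPLN1 (ENSDARG00000068516), a link protein that joins hyaluronan to large proteoglycans, was 13.5-fold higher at 3 dpa, from 2.83 ± 0.710 CPM (SD, n = 3, edgeR adjusted p = 0.00104). The related row hapln1a (ENSDARG00000089769) was at 121 ± 13.7 CPM in the uncut fin and 349 ± 70.0 CPM at 3 dpa. The heparan sulfate proteoglycan gpc1b rose 3.29-fold at 2 dpa (edgeR adjusted p = 6.24e-05), and vcanb, a versican gene, was 1.67-fold higher at 10 dpa (edgeR adjusted p = 0.0474). The level of vcanb was 37.7 ± 6.18 CPM in the uncut fin, 115 ± 10.1 CPM at 3 dpa and 63.1 ± 6.93 CPM at 10 dpa. The lubricin gene prg4a was still 16.4-fold lower at 10 dpa (edgeR adjusted p = 6.63e-04). The other lubricin row, prg4b, was at 12.2 ± 5.88 CPM in the uncut fin, 0.176 ± 0.0889 CPM at 2 dpa and 6.02 ± 1.05 CPM at 10 dpa.

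**Figure D4:**
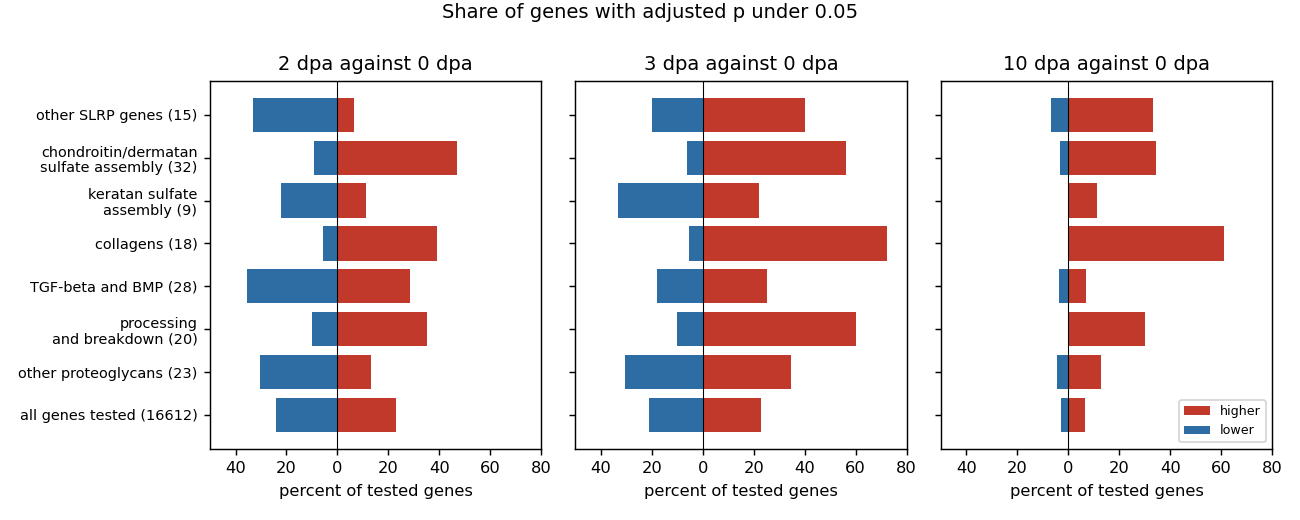
Percent of tested rows called higher (red, to the right) or lower (blue, to the left) than the uncut fin at 2, 3 and 10 dpa, at edgeR adjusted p under 0.05. Rows are the other small leucine-rich proteoglycan genes and 6 gene lists tied to them, with the number tested in brackets, and all genes tested. Collagens reach 72.2% higher at 3 dpa and 61.1% at 10 dpa, where all tested genes stand at 22.8% and 6.60%.

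The genes whose levels ran most like each member over the 12 libraries were picked from 12785 candidates by Pearson's r of log2 CPM, which is a description of libraries that share their stages. For BGN they were aebp1b (r = 0.99), a collagen-binding protein related to carboxypeptidases, CCN4 (0.99), a matricellular protein, TNMD (0.98), a tendon gene, and the collagen-binding integrin subunits ITGA10 (0.98) and ITGA11 (0.97). TNMD is also on the mesenchyme marker list. It stood at 17.3 to 63.9 CPM in the uncut fin, 2.65 to 13.3 CPM at 2 dpa, 20.1 to 31.9 CPM at 3 dpa and, by 10 dpa, 78.7 to 93.2 CPM. Scleraxis, a tendon transcription factor, had 2 rows on that list. SCX was at 2.33 to 4.53, 0.133 to 0.352, 2.06 to 3.12 and 8.83 to 11.0 CPM in the same order, and scxb was at 0.605 to 1.28, 0.156 to 0.201, 0.229 to 0.532 and 0.872 to 1.14 CPM, so for scxb 10 dpa overlapped the uncut fin. Other rows of the mesenchyme list went the other way, such as TNFAIP6, at 11.8 to 41.3 CPM in the uncut fin and 98.0 to 134 CPM at 2 dpa. Of the 14 tested rows of that list, 4 were called higher and 5 lower at 2 dpa, against 22.9% and 24.1% of all tested genes. Most unlike BGN was FAT2 (r = -0.96), a large cadherin.

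The genes most like OGN were MXRA8 (r = 0.99), a membrane protein, CORO2B (0.98), cdca7b (0.98), znf423 (0.98) and PCDH12 (0.97). MXRA8 was at 51.0 to 94.0 CPM in the uncut fin and at 423 to 629 CPM at 3 dpa. Most unlike OGN was SF3B1 (r = -0.96), a splicing factor. The genes most like PODN were dhrs12lb (r = 0.99), IVNS1ABP (0.99), MYCL (0.99), KTN1 (0.99) and AK1 (0.99). MYCL, a MYC family transcription factor, was at 80.6 to 136 CPM in the uncut fin, 12.2 to 25.0 CPM at 2 and 3 dpa and, by 10 dpa, 79.8 to 84.8 CPM. Most unlike PODN was RSPO3 (r = -0.98), a secreted activator of WNT signalling, at 0.813 to 0.951 CPM in the uncut fin and 3.57 to 5.25 CPM at 2 dpa.

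**Figure D5:**
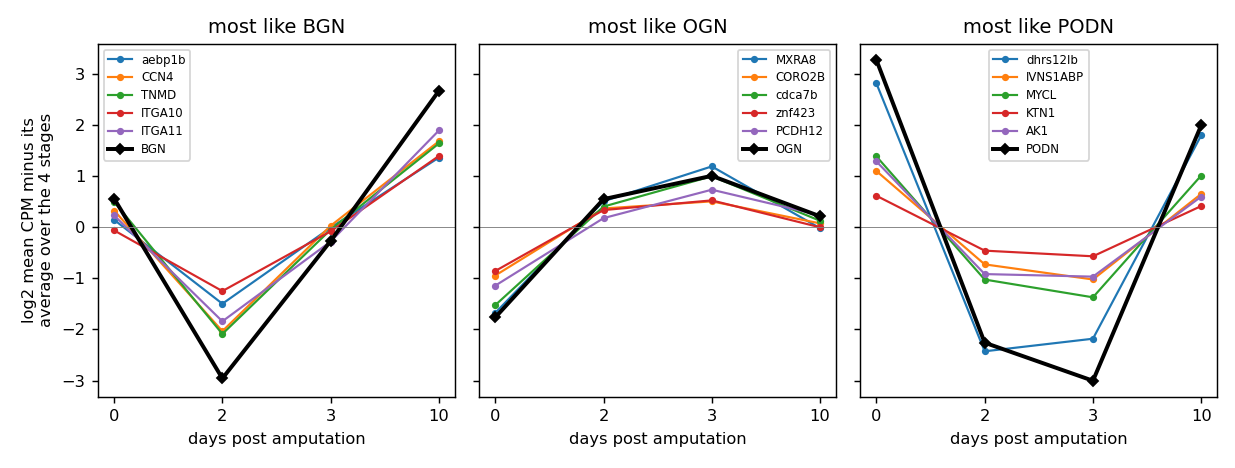
Mean level at each stage for BGN, OGN and PODN (black) and the 5 genes most like each over the 12 libraries, as log2 of the mean CPM minus the average of the 4 stages. Stages are evenly spaced, and lines join the means of 3 libraries. The genes like BGN dip at 2 dpa and peak at 10 dpa, those like OGN peak at 3 dpa, and those like PODN lie low at 2 and 3 dpa.

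The summed markers of pigment cells and of nerve and glia were, like PODN, lower at 2 and 3 dpa than at the other stages. Pigment cell markers (10 rows) summed to 287 to 401 CPM in the uncut fin, 16.3 to 27.9 CPM at 2 dpa, 27.1 to 70.5 CPM at 3 dpa and, by 10 dpa, 411 to 496 CPM. Markers of nerve and glia (8 rows) summed to 307 to 352, 98.7 to 156, 90.2 to 120 and 185 to 220 CPM in the same order. Single rows differed from these sums. MITF (ENSDARG00000037833), a pigment cell transcription factor, was at 3.49 ± 0.434 CPM in the uncut fin and 6.63 ± 2.65 CPM at 2 dpa, and of 9 tested pigment rows 1 was called higher and 8 lower there. Among all tested genes 22.9% were higher and 24.1% lower at 2 dpa. GFAP, a glial filament gene, was at 2.22 ± 0.647 CPM in the uncut fin, 0.957 ± 0.284 CPM at 2 dpa and 2.55 ± 1.77 CPM at 3 dpa (SD, n = 3). Endothelial markers (9 rows) summed to 114 to 145, 26.2 to 64.6, 106 to 154 and 165 to 197 CPM, and leukocyte markers (8 rows) to 136 to 179, 114 to 208, 93.6 to 162 and 117 to 159 CPM. No pigment cell or leukocyte marker was at 0 throughout a stage. Of the nerve and glia rows 1 was at 0 throughout 3 dpa. Of the endothelial rows 1 was at 0 throughout the uncut fin and 1 throughout 10 dpa. The part of these cell types in the PODN levels was not tested.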

How the data were processed

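RNA from 12 pools of caudal fin was made into libraries with a Lexogen SENSE kit for SOLiD sequencing, per the labels' protocols. The values are raw counts per Ensembl gene, deposited by the authors as 1 table. No source used here names the aligner, counter, genome build, annotation or use of strand, so overlapping genes and near-identical paralogs are uncertain.

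Counts were tested with edgeR 4.0.16 in R 4.3.3 (quasi-likelihood, TMM scaling, filterByExpr with minimum count 10, stage as the only term, all 12 libraries). Of 33737 rows, 7599 held no count and 16612 were tested. P-values were adjusted by Benjamini-Hochberg over all of these, with a threshold of 0.05, and measure the spread between pools. The script was tested on simulated data. Standard errors are the log2 change divided by the root of F. Log2 CPM for correlations used a prior count of 2.

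BGN, OGN, PODN and all gene lists were chosen with earlier results of these data known. Each list's named genes came from up to 2 with the widest rise and 2 with the widest fall per comparison with 0 dpa. These were called, without overlap, and had a minimum of 10 counts per library at the higher stage. Not all are printed. The second rows of PAPSS2, TGFBR2, COL12A1, PCOLCE2 and MMP14, the rows COL14A1, PAPSS1, col6a1 and hapln1a, and single marker rows were named outside this rule. The genes most like a member were the 5 highest and 3 lowest by r. The row csf1rb is on the leukocyte and pigment cell lists and enters both sums. Alternatives were RLE scaling, no filter, a replicate block, the compared stages alone, DESeq2 1.42.0, library totals without scaling (added after seeing the data) and each library left out, for the proteoglycan rows. No protein or promoter sequence was used here.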

Additional observations from a re-analysis of the deposited data

How the results depend on the processing

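Under RLE scaling, no filter, library totals, the compared stages alone, DESeq2 and the replicate block, BGN, OGN and PODN gave 107 stage changes. All 107 kept their direction, and not each of the 18 changes was estimated in each setting. With library totals alone the median of all tested genes shifted by 0.12 at 2 dpa against 0 dpa, on the log2 scale. Leaving out 1 library reversed 2 changes: BGN at 3 dpa against 0 dpa became 0.148 without replicate 3 of 0 dpa, and PODN at 3 dpa against 2 dpa became 0.408 without replicate 1 of 2 dpa. Over the 12 omissions BGN ranged from -4.67 to -2.52 at 2 dpa, from -1.27 to 0.148 at 3 dpa and from 1.68 to 3.10 at 10 dpa against 0 dpa. It ranged from 2.24 to 3.82 for 3 dpa and from 5.20 to 6.79 for 10 dpa against 2 dpa. PODN ranged from -6.57 to -4.98 for 2 dpa against 0 dpa, from -1.21 to 0.408 for 3 dpa against 2 dpa and from 3.69 to 5.30 for 10 dpa against 2 dpa. The count of other family rows called ranged from 1 to 2 higher at 2 dpa, from 1 to 6 higher and 0 to 1 lower at 10 dpa, all against 0 dpa. It ranged from 1 to 7 higher for 3 dpa against 2 dpa, from 1 to 2 lower for 10 dpa against 2 dpa and from 1 to 3 higher for 10 dpa against 3 dpa. Over the same omissions, the count of all genes called higher ranged from 374 to 1556 for 10 dpa against 0 dpa. For 3 dpa against 2 dpa that count ranged from 161 to 1101. With the compared stages alone, fewer samples entered each fit. There 9 rows were higher at 10 dpa against 0 dpa and 1 was higher at 3 dpa against 2 dpa. At 10 dpa against 2 dpa 1 was lower, ecm2, while optc was not tested in that setting. Of all genes tested in that setting, 1429 of 15797 were called higher at 10 dpa against 0 dpa. At 3 dpa against 2 dpa 30 of 15300 were called higher, where the main fit called 545 of 16612. With no filter, 1 family row was lower at 10 dpa against 2 dpa, and the cause was not tested. The lowest levels, PODN at 2 and 3 dpa and BGN at 2 dpa, rest on 2 to 27 counts a library, which limits their precision.

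The replicate number follows a field of the sample names whose meaning the labels do not give, so the samples share only a number. The deviations of libraries from their stage mean correlated with a median r of 0.12 within a number (18 pairs, -0.225 to 0.478, 11 over 0.1) and -0.04 across numbers, and 9 of 12 libraries correlated best with their own number, a hint from the data and not the design. With the replicate block the BGN, OGN and PODN changes moved by no more than 0.26, as for BGN at 2 dpa against 0 dpa (-3.24 in place of -3.50). Calls over all genes at 10 dpa against 0 dpa went from 1558 to 2289. Among the other family rows the block gave 5 higher and 2 lower at 3 dpa, and 5 higher and 1 lower at 10 dpa, against 0 dpa.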
